A study of Homo sapiens with 4 samples.

Results

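Potassium channel genes were examined by polyA-selected RNA sequencing in H9, an established line of human embryonic stem cells, at day 7 of a culture that the series describes as non-neural ectoderm. The genes were chosen by symbol, as the rows of the gene table whose name is KCN followed by letters and a closing number, which gave 94 of 25690 gene rows. No count entered this choice, but the family was picked from among others with results of the same comparison known, so its counts of differing genes describe it and support nothing further. The groups were wild-type (WT) cells and cells with the genotype label TFAP2A knockout, 2 libraries each, and the latter are called KO libraries below. The sample titles of the KO libraries name TFAP2C rather than TFAP2A. The labels do not state the clone, the guide, the exons removed or the differentiation steps, and do not say whether the libraries of 1 genotype stem from different cultures. The p-values therefore rest on a spread between libraries that could be purely technical. Libraries held 17838204 to 21797850.5 counts, of which potassium channel genes took 0.0858% and 0.0864% in WT and 0.0637% and 0.0611% in the KO libraries. The TFAP2A transcript was at 171 and 198 CPM in WT and 133 and 121 CPM in the KO libraries (log2 fold change -0.54 with SE 0.07, adjusted p = 0.000125), and TFAP2C was at 27.5 and 30.6 CPM against 8.89 and 5.77 CPM. TFAP2A transcript was thus lower but still plentiful, and a gene-level count cannot tell which of its exons were read.

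Potassium channels let potassium ions leave or enter the cell along their gradient and so set the resting membrane potential, end action potentials and drive transport across epithelia. Voltage-gated channels (KCNA to KCND, KCNF to KCNH, KCNQ, KCNS and KCNV) open on depolarisation, and their class here includes silent subunits that form no channel alone. Inward rectifiers (KCNJ) and two-pore-domain channels (KCNK) hold the potential at rest. Calcium-activated channels (KCNMA1 and KCNN) answer rises in calcium, with the sodium-activated KCNT channels counted beside them here. Accessory subunits (KCNAB, KCNE, KCNIP and KCNMB) form no pore and change the gating or trafficking of the others. Several of these genes are known from heart and neuron, and others from epithelia, where they support secretion and volume control.

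Of the 94 genes, 61 had enough counts to test, 3 had 0 counts in every library, and the other 30 untested genes had totals of 0.5 to 25.5 counts over the 4 libraries. Levels are CPM, counts per 1000000 counts of each library, with library sizes adjusted by TMM scaling factors. Tests are from edgeR's quasi-likelihood fit to all 15643 genes that passed the filter on low counts, with p-values adjusted over all of them by Benjamini-Hochberg and a threshold of 0.05. In the KO libraries 28 of the 61 genes fell and 12 rose, while 21 did not pass. Over all genes tested, 22.3% were called lower and 21.9% higher. Where the log2 fold change also had to reach 1 in size, 20 members fell and 7 rose, and over all genes 6.77% were lower and 4.49% higher by that rule. The median log2 fold change of the 61 was -0.41 (range -4.69 to 2.19), beside 0.00 over all genes. Because the comparison was in view when the family was chosen, nothing is read from the distance between these shares. In RNA from whole cultures, fewer cells of a type and less RNA per cell cannot be told apart, here or in any result that follows.

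**Figure D1:**
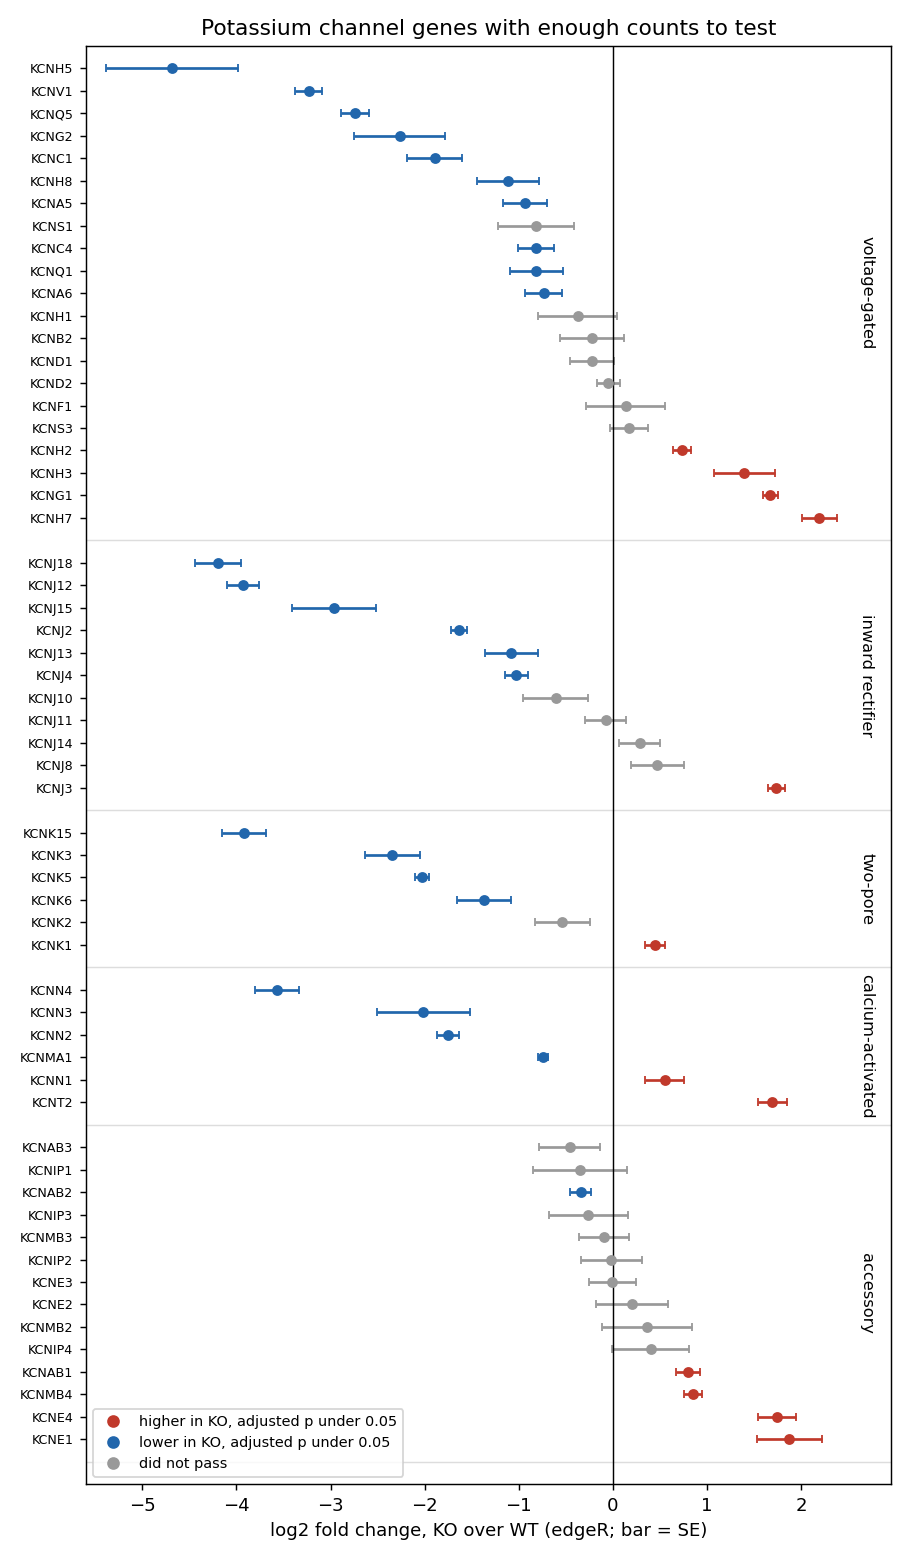
Each point is the log2 fold change (KO over WT, horizontal axis) of a potassium channel gene, for 58 of the 61 tested, with its standard error as a bar, ordered within 5 classes. Most two-pore, inward rectifier and calcium-activated members lie to the left of 0, and accessory subunits lie near or to the right of it.

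Among voltage-gated genes 13 of 24 tested fell and 4 rose (median log2 fold change -0.63). Among inward rectifiers 6 of 11 fell and 1 rose (median -1.03), among two-pore genes 4 of 6 fell and 1 rose (median -1.70), and among calcium- and sodium-activated genes 4 of 6 fell and 2 rose (median -1.24). Among accessory subunits 1 of 14 fell and 4 rose (median 0.10). Over all genes tested 22.3% fell and 21.9% rose, and no test compared the classes.

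**Figure D2:**
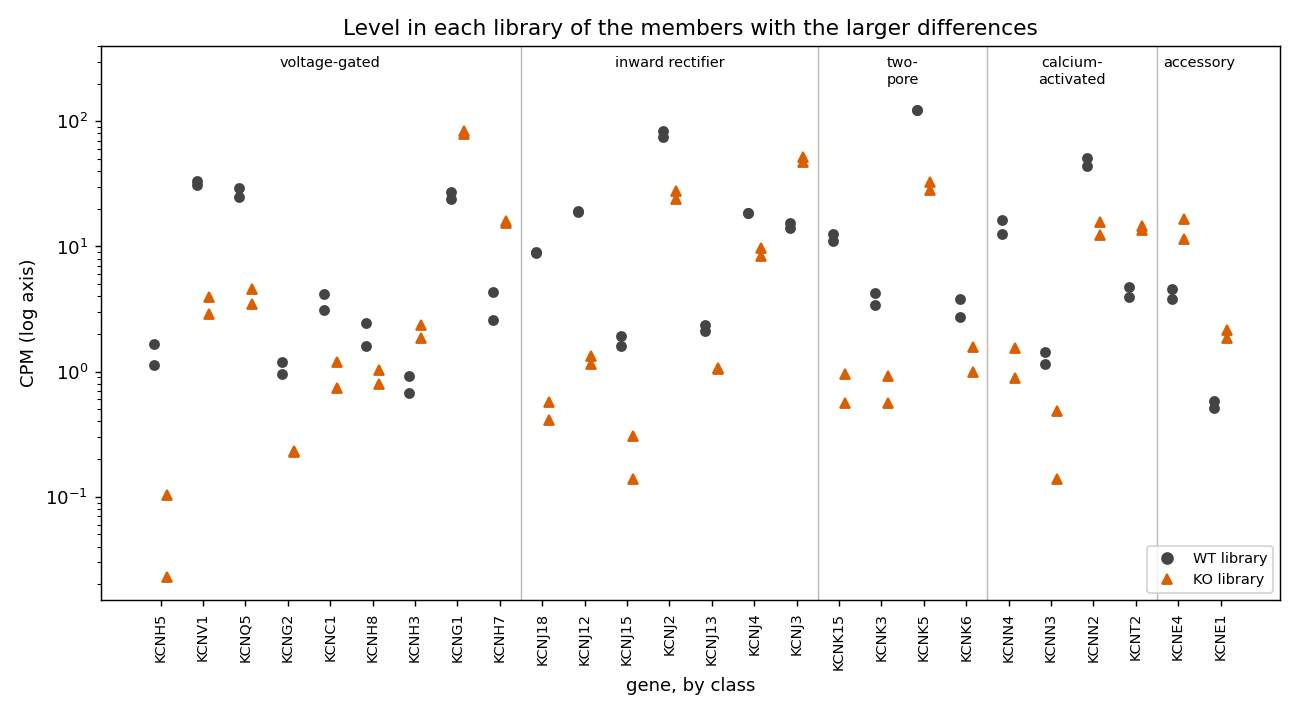
CPM on a log axis in each WT library (circles) and each KO library (triangles) for 26 of the 27 potassium channel genes that passed and whose log2 fold change reached 1 in size, by class. The 2 libraries of a genotype sit close together for most genes, and the widest replicate gaps are those of KCNH5, KCNJ15 and KCNN3 in the KO libraries.

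Markers of the labelled tissue and of other cell types moved between genotypes too, and their part in these results was not tested. Of 12 surface ectoderm markers 9 fell, with summed levels of 2781 to 3050.5 CPM in WT and 2060 to 2145 CPM in the KO libraries, and none was at 0. Among these 9 are TFAP2A, which the genotype label names as knocked out, and TFAP2C, which the sample titles name. Of 7 amnion and trophoblast markers found, of 8 listed, 5 fell and 2 rose, with sums of 1809 to 1931 CPM against 153 to 204 CPM. Of 11 markers of neural ectoderm and neurons 6 rose, among them the neuronal gene ELAVL3 (0.338 against 1.17 CPM). The sum of all 11 was 518 to 523 against 592 to 605 CPM, and without the most abundant marker, which did not pass, it was 23.3 to 26.4 against 59.1 to 82.3 CPM. That most abundant marker was the neuronal gene DCX (495 against 528 CPM), and TUBB3 (6.62 against 8.35 CPM) did not pass either. The neuronal markers NEUROG2 and STMN2 were too low to test. STMN2 had 4.5 and 7.5 counts in WT and 1.5 and 1.5 in the KO libraries. NEUROG2 had 1 and 1 counts in WT and 0 and 0 in the KO libraries. Of 8 neural crest and melanocyte markers 3 fell (60.7 to 62.4 against 17.7 to 18.3 CPM, or 19.9 to 23.8 against 16.9 to 17.7 CPM without the most abundant), with SOX10 near 0.2 CPM and FOXD3 and PAX3 lower still. Of 7 endothelial markers 3 fell (47.9 to 49.8 against 18.6 to 20.7 CPM), and PECAM1 was at 0 in every library. Of 8 heart and smooth muscle markers 3 fell and 2 rose, and their sum was 87.9 to 90.6 against 101 to 122 CPM, or 57.7 to 60.1 against 48.7 to 55.5 CPM without the most abundant, which rose. Of 5 pluripotency markers 3 were tested and did not pass (sums 106 to 113 against 100.5 to 112 CPM).

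Promoters are shown first for 4 members that fell, KCNQ5, KCNJ2, KCNK3 and KCNK5, because the label names the loss of an AP-2 factor and AP-2 proteins bind the palindrome GCCNNNGGC. KCNQ5, KCNJ2 and KCNK3 hold that palindrome and KCNK5, the member with the highest level per kb of transcript in WT, does not, and the 4 were picked after these matches were seen. The sequences are from RefSeq (GRCh38.p14), which held a promoter for 70 of the 94 symbols, and run from 250 bases before to 50 bases after the gene start, written 5′ to 3′ on the gene's strand. Capitals mark each match to the palindrome, which reads the same on both strands.
KCNQ5 (chr6:72621814-72622113, plus strand): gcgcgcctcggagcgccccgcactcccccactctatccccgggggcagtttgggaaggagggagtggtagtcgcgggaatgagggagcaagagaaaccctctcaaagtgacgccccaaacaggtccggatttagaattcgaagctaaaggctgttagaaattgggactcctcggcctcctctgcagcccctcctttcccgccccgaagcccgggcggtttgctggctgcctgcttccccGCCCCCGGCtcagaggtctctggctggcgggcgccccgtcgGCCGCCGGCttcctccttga
KCNJ2 (chr17:70169282-70169581, plus strand): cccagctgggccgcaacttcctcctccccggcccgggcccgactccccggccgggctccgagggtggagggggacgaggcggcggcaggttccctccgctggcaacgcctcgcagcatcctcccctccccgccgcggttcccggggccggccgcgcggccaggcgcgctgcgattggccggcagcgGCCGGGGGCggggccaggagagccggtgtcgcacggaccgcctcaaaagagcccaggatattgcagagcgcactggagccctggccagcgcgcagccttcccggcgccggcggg
KCNK3 (chr2:26692472-26692771, plus strand): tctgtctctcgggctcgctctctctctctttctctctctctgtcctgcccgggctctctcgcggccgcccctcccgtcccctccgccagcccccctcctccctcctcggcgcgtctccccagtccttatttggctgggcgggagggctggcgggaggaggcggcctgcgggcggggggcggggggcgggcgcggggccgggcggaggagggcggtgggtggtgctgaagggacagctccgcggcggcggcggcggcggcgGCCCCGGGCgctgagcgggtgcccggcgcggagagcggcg
KCNK5 (chr6:39229426-39229725, minus strand): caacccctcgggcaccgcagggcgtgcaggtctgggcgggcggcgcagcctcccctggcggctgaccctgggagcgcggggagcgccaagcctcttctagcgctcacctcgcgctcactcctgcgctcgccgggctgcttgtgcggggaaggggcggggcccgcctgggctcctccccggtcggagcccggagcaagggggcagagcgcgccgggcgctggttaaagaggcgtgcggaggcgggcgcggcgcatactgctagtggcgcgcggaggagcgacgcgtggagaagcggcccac
KCNQ5 held 2 matches, KCNJ2 and KCNK3 held 1 each, and KCNK5 held none. At least 1 match was present in 14 of the 45 tested members with a promoter (31.1%), in 8 of 21 that fell, in 1 of 7 that rose and in 5 of 17 that did not pass. The share was 32.0% over promoters of all tested genes and 23.0% over all 27305 promoters in the table. Among promoters of all genes that fell it was 34.4%, and among those of genes that rose it was 32.6%. The one member that rose with a match was KCNH2, which held 2. A match is a description of these letters and not a bound site.

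The larger falls among voltage-gated genes were those of KCNH5, KCNV1 and KCNQ5. KCNV1 (chromosome 8, 110979233 to 110986959, minus strand, hg19) encodes a subunit that forms no channel alone and modifies Kv2 channels. It was at 30.8 and 33.3 CPM in WT and 3.97 and 2.86 CPM in the KO libraries, so both KO libraries were far below both WT libraries, a fall of 9.37-fold (log2 fold change -3.23 with SE 0.14, adjusted p = 2.85e-10). KCNQ5 (chromosome 6, 73331571 to 73908573, plus strand, hg19), a Kv7 channel of the M-current that damps repetitive firing, was at 24.9 and 29.1 CPM against 4.61 and 3.46 CPM, a drop of 6.69-fold (log2 fold change -2.74 with SE 0.15, adjusted p = 2.31e-09). KCNH5, an ether-à-go-go channel, went from 1.65 and 1.13 CPM to 0.102 and 0.0229 CPM. The KO libraries held 2.5 counts of KCNH5 against 49.5 in WT, a ratio of 23.0 (95% exact counting interval 6.27 to 97.2, from counts rounded to whole numbers), and its fitted log2 fold change of -4.69 (adjusted p = 8.03e-05) became -7.75 without KO replicate 1 and -3.69 without KO replicate 2.

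KCNQ1, the slow cardiac and epithelial channel, was at 2.45 against 1.43 CPM in means, and its call (adjusted p = 0.0297) was lost without WT replicate 2 (0.228) or KO replicate 2 (0.201), with DESeq2 (0.245) and with the replicate number as a block (0.0671). The row of the non-coding gene KCNQ1OT1 lies within that of KCNQ1 on the other strand, with 1069.5 to 1880.5 counts per library, and whether the counting used strand is not stated in the labels. KCNQ3 was not tested, with 2.5 counts in WT and 7.5 in the KO libraries.

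KCNC1 and KCNC4 encode Kv3 channels, which repolarise fast-firing neurons. KCNC1 fell from 4.14 and 3.09 CPM to 0.743 and 1.19 CPM (log2 fold change -1.89 with SE 0.29, adjusted p = 0.000117). KCNC4 fell from 5.06 and 5.08 CPM to 2.82 and 2.91 CPM (adjusted p = 0.00309, or 0.0603 with DESeq2). KCNC2 had 0.5 counts in all. Of the Kv1 genes, KCNA5, the atrial repolarising channel, and KCNA6 fell, from 4.35 to 2.26 CPM (adjusted p = 0.00525) and from 4.46 to 2.67 CPM (adjusted p = 0.00799). The KCNA5 call was lost with DESeq2 (adjusted p = 0.0598) and without KO replicate 1 (0.051), and that of KCNA6 with DESeq2 (0.122) and without WT replicate 2 (0.0598). KCNA4 had 0 counts in WT against 6 and 7 in the KO libraries, at least 3.72-fold higher if WT is set to the floor of 3 counts for both libraries together, and was not tested. Kv4 genes did not pass: KCND2 was at 17.4 and 19.2 CPM in WT and 19.9 and 15.6 CPM in the KO libraries, whose ranges overlapped, and KCND1 at 2.89 against 2.47 CPM.

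Rises among voltage-gated genes fell on KCNG1 and on genes of the KCNH group. KCNG1 (chromosome 20, 49620193 to 49639675, minus strand, hg19), another silent modifier of Kv2 channels, was at 27.1 and 24.1 CPM in WT and 84.2 and 79.5 CPM in the KO libraries, 3.19-fold higher (log2 fold change 1.67 with SE 0.08, adjusted p = 4.22e-10). KCNH7 (chromosome 2, 163227917 to 163695257, minus strand, hg19), an ERG channel, rose from 2.57 and 4.34 CPM to 15.4 and 16.1 CPM, 4.56-fold (log2 fold change 2.19 with SE 0.19, adjusted p = 7.76e-07), with no overlap between genotypes. KCNH2, the ERG channel of cardiac repolarisation, rose from 17.98 and 16.1 CPM to 29.5 and 27.4 CPM (log2 fold change 0.74 with SE 0.10, adjusted p = 2.62e-05). KCNH6, the remaining ERG gene, had 2.5 counts in all. The ELK channel genes split: KCNH3 rose from 0.923 and 0.680 CPM to 2.36 and 1.86 CPM (log2 fold change 1.40 with SE 0.32, adjusted p = 0.00281, or an adjusted p of 0.0589 with DESeq2), whereas KCNH8 was at 1.59 and 2.44 CPM against 0.794 and 1.03 CPM (log2 fold change -1.12 with SE 0.33, adjusted p = 0.0129). The KCNH8 call was lost with DESeq2 (adjusted p = 0.147), without WT replicate 2 (0.182) and without KO replicate 1 (0.0849). KCNH1, an ether-à-go-go gene like KCNH5, did not pass, at 0.832 against 0.617 CPM. These subfamilies were compared after their values were seen.

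Kir2 genes, the strong inward rectifiers that clamp the resting potential, were 4 of the 6 inward rectifier genes that fell. KCNJ12 and KCNJ18 enter this count, and those of the family and its classes, as separate genes although their reads cannot be told apart. KCNJ2 (chromosome 17, 68165676 to 68176183, plus strand, hg19), mutated in Andersen-Tawil syndrome, was at 75.5 and 83.8 CPM in WT and 27.8 and 23.7 CPM in the KO libraries, 3.09-fold lower (log2 fold change -1.63 with SE 0.09, adjusted p = 3.48e-09). Its head-to-head antisense neighbour KCNJ2-AS1, whose row does not overlap that of KCNJ2, fell beside it from 7.02 and 7.12 CPM to 3.28 and 2.47 CPM (log2 fold change -1.31, adjusted p = 7.14e-05). KCNJ4 fell from 18.5 and 18.4 CPM to 9.73 and 8.39 CPM, and the WT libraries differed by less than the KO libraries did (log2 fold change -1.03 with SE 0.12, adjusted p = 8.77e-06). KCNJ12 was at 19.0 and 19.0 CPM against 1.33 and 1.15 CPM (log2 fold change -3.94 with SE 0.17, adjusted p = 2.55e-10) and KCNJ18 at 8.92 and 9.02 CPM against 0.410 and 0.573 CPM (log2 fold change -4.20). These are near-identical copies, and the KCNJ18 row (chromosome 17, 21308448 to 21320482, plus strand, hg19) lies wholly inside that of KCNJ12 on the same strand, so their counts cannot be assigned to 1 or the other. Summed into a single feature they were at 27.96 and 27.98 CPM in WT and 1.74 and 1.72 CPM in the KO libraries (log2 fold change -4.00, SE 0.14, adjusted p = 3.35e-11). KCNJ14, which encodes a further Kir2 channel, did not pass, at 2.79 against 3.43 CPM.

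KCNJ3 (chromosome 2, 155555093 to 155714864, plus strand, hg19), the GIRK1 subunit of G protein-gated channels, was the one inward rectifier gene that rose. It was at 14.1 and 15.5 CPM in WT and 47.1 and 51.9 CPM in the KO libraries, 3.33-fold higher (log2 fold change 1.74 with SE 0.09, adjusted p = 1.39e-09). Members at low levels fell as well: KCNJ15, a Kir4 channel, went from 1.59 and 1.93 CPM to 0.307 and 0.137 CPM (log2 fold change -2.96 with SE 0.45, adjusted p = 9.31e-05), and without KO replicate 1 the log2 fold change was -3.60. KCNJ13, the Kir7.1 channel of pigmented and transporting epithelia, went from 2.38 and 2.13 CPM to 1.05 and 1.08 CPM (log2 fold change -1.08 with SE 0.28, adjusted p = 0.00619, or an adjusted p of 0.123 with DESeq2). The KCNJ13 row lies wholly inside that of GIGYF2 on the other strand, which was at 121 CPM in WT and 122 in the KO libraries, so reads from it could be counted under KCNJ13 if strand was not used. KCNJ11 and KCNJ8, the pore subunits of ATP-sensitive channels, did not pass, at 3.50 against 3.31 CPM and 1.39 against 1.93 CPM, and neither did KCNJ10, at 1.29 against 0.845 CPM.

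KCNK5 (chromosome 6, 39156747 to 39197251, minus strand, hg19), the alkali-activated TASK-2 channel of transporting epithelia, had the highest level per length of all 94 genes in WT. It was at 123 and 124 CPM in WT and 32.5 and 28.3 CPM in the KO libraries, 4.06-fold lower, and the gap was many times the spread within either genotype (log2 fold change -2.03 with SE 0.07, adjusted p = 3.34e-11). KCNK3, the acid-sensitive TASK-1 channel, fell from 3.41 and 4.25 CPM to 0.563 and 0.917 CPM (log2 fold change -2.35 with SE 0.29, adjusted p = 1.46e-05). KCNK6, the TWIK-2 channel, fell from 3.77 and 2.75 CPM to 1.56 and 0.985 CPM (log2 fold change -1.37 with SE 0.29, adjusted p = 0.00133). KCNK1, the TWIK-1 channel and a sequence relative of KCNK6, rose from 19.7 and 18.4 CPM to 28.2 and 23.7 CPM (log2 fold change 0.45 with SE 0.11, adjusted p = 0.00337). The stretch-sensitive channel gene KCNK2 did not pass, with 4.14 and 3.29 CPM in WT and 3.43 and 1.74 CPM in the KO libraries, where the groups overlap.

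KCNK15 (chromosome 20, 43374488 to 43380954, plus strand, hg19), a TASK relative, was at 11.0 and 12.6 CPM in WT and 0.563 and 0.962 CPM in the KO libraries (log2 fold change -3.92 with SE 0.23, adjusted p = 5.97e-09). Its last 510 bases overlap the row of RIMS4, a gene on the other strand with 119.8 and 116 CPM in WT and 6.35 and 6.94 CPM in the KO libraries (log2 fold change -4.14). Reads from RIMS4 could therefore be counted under KCNK15 if strand was not used, and the 2 falls cannot be told apart. The remaining 9 two-pore genes were too low to test, among them KCNK9, with 1.5 and 7.5 counts in WT and 0 and 4.5 in the KO libraries.

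Among calcium-activated channels, every SK, IK and BK gene fell except KCNN1. KCNN2 (chromosome 5, 113698016 to 113832197, plus strand, hg19), the SK2 channel of after-hyperpolarisation, was at 43.8 and 50.5 CPM in WT and 15.8 and 12.4 CPM in the KO libraries, 3.35-fold lower (log2 fold change -1.75 with SE 0.12, adjusted p = 2.32e-07). KCNN4 (chromosome 19, 44270685 to 44285409, minus strand, hg19), the intermediate-conductance channel of epithelia, red cells and lymphocytes, fell from 16.4 and 12.6 CPM to 1.54 and 0.894 CPM, 11.9-fold (log2 fold change -3.57 with SE 0.23, adjusted p = 4.29e-08). KCNMA1, which encodes the BK channel pore and had the highest CPM of the family, fell from 173 and 176 CPM to 104 and 105 CPM (log2 fold change -0.74 with SE 0.05, adjusted p = 3.83e-08), a smaller change with little spread in either genotype. KCNN3 was at 1.15 and 1.45 CPM against 0.487 and 0.137 CPM (log2 fold change -2.02 with SE 0.50, adjusted p = 0.00431), and 1 library decided its call: the log2 fold change was -1.32 (adjusted p = 0.0732) without KO replicate 2 and -3.17 without KO replicate 1. DESeq2 also left KCNN3 above the threshold (adjusted p = 0.0572).

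KCNT2 (chromosome 1, 196194910 to 196577561, minus strand, hg19), a sodium-activated channel, rose from 3.97 and 4.71 CPM to 14.5 and 13.6 CPM, 3.24-fold (log2 fold change 1.69 with SE 0.15, adjusted p = 4.73e-07). KCNN1 passed narrowly, at 6.51 and 5.27 CPM in WT and 6.81 and 10.4 CPM in the KO libraries (adjusted p = 0.0489). Its call was lost in 8 of 13 alternatives, with an adjusted p of 0.438 and a log2 fold change of 0.21 without KO replicate 2, 0.234 without WT replicate 2, 0.0652 without WT replicate 1 and 0.151 with DESeq2. KCNT1 and KCNU1 were not tested, with 3 and 1 counts in all.

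Of 14 accessory genes tested 4 rose and 1 fell, beside 21.9% higher and 22.3% lower over all genes tested. KCNE4 (chromosome 2, 223916648 to 223920357, plus strand, hg19), an inhibitory partner of several voltage-gated channels, was at 4.61 and 3.77 CPM in WT and 11.4 and 16.5 CPM in the KO libraries, 3.32-fold higher (log2 fold change 1.74 with SE 0.20, adjusted p = 2.17e-05). KCNE1, which joins KCNQ1 to form the slow delayed rectifier, rose from 0.587 and 0.510 CPM to 1.84 and 2.13 CPM (log2 fold change 1.88 with SE 0.34, adjusted p = 0.000461), both levels being low. KCNMB4, a beta subunit of the BK channel, rose from 16.8 and 14.9 CPM to 28.2 and 28.8 CPM (log2 fold change 0.85 with SE 0.10, adjusted p = 6.46e-06). KCNAB1, a beta subunit of Kv1 channels, rose from 8.98 and 8.17 CPM to 15.2 and 14.6 CPM (log2 fold change 0.80, adjusted p = 0.000145). Its relative KCNAB2 was at 15.4 and 14.9 CPM against 11.6 and 12.2 CPM (log2 fold change -0.34, adjusted p = 0.0256), a fall whose call was lost without any 1 of the 4 libraries (adjusted p = 0.0594 to 0.116) and with DESeq2 (0.183).

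The other 9 accessory genes tested did not pass, and KCNMB1 was not tested. The 4 KCNIP genes, whose proteins bind Kv4 channels, had log2 fold changes of -0.35, -0.26, -0.02 and 0.40 for KCNIP1, KCNIP3, KCNIP2 and KCNIP4. KCNAB3 had a log2 fold change of -0.46. KCNE2 and KCNE3 were at 0.888 against 1.03 CPM and at 2.42 against 2.40 CPM. KCNE1L, the earlier name of KCNE5, lies outside the symbol rule and was at 8.11 and 9.55 CPM in WT and 5.79 and 7.08 CPM in the KO libraries (adjusted p = 0.0354), a call lost without WT replicate 2, without KO replicate 1 and with DESeq2.

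Per kb of transcript, the gene with the highest level differed between genotypes for inward rectifiers, two-pore genes, accessory genes and the family as a whole. Of these, only the inward rectifiers also differed in CPM. In CPM, KCNK5 led the two-pore genes, KCNMB4 the accessory genes and KCNMA1 the family in every library. The accessory lead per kb was narrow in WT, with KCNAB2 at 3.59 and 3.48 and KCNMB4 at 3.55 and 3.15. To compare genes, CPM was divided by the length of the longest coding transcript, and the following values are CPM per kb of transcript. KCNK5 was highest in WT, at 32.9, and had rank 5 in the KO libraries, at 8.10. KCNG1 was highest in the KO libraries, at 37.0, and had rank 4 in WT, at 11.6. KCNJ3 moved from rank 20 (2.96) to rank 3 (9.86), while KCNJ2 moved from rank 2 (14.8) to rank 8 (4.78). These ranks are descriptions, since neighbouring genes in the order may differ by less than their spread.

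By class, KCNJ2 made up 37.7% and 39.7% of the summed inward rectifier level per kb in the WT libraries, and KCNJ3 made up 40.7% and 45.1% of it in the KO libraries. KCNK5 made up 67.1% and 67.7% of the two-pore level in WT, and KCNK1 55.8% and 54.5% in the KO libraries. KCNG1 led the voltage-gated genes in every library, with 25.1% and 22.3% of the level in WT and 55.8% and 55.98% in the KO libraries. KCNMA1 led the calcium-activated class throughout, at 41.1% and 41.8% in WT and 48.98% and 50.3% in the KO libraries. The sums themselves were lower in the KO libraries for two-pore genes (23.4 and 20.1 against 48.9 and 48.8), inward rectifiers (23.05 and 22.9 against 37.1 and 39.1) and calcium-activated genes (17.5 and 17.3 against 34.8 and 34.9). They were higher for voltage-gated genes (68.3 and 64.2 against 48.8 and 48.9) and accessory genes (20.4 and 22.5 against 15.3 and 14.1). The direction of the voltage-gated sum rested on KCNG1: without it the sum was 36.6 and 37.9 in WT and 30.2 and 28.3 in the KO libraries, and in CPM, not divided by length, the whole class summed to 242.9 and 243.5 against 242.8 and 227.2. Leaving out KCNK5 brought the two-pore sums to 16.1 and 15.8 in WT against 14.8 and 12.5 in the KO libraries. A sum over genes is not a current, and silent subunits such as KCNG1 enter the voltage-gated sum.

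**Figure D3:**
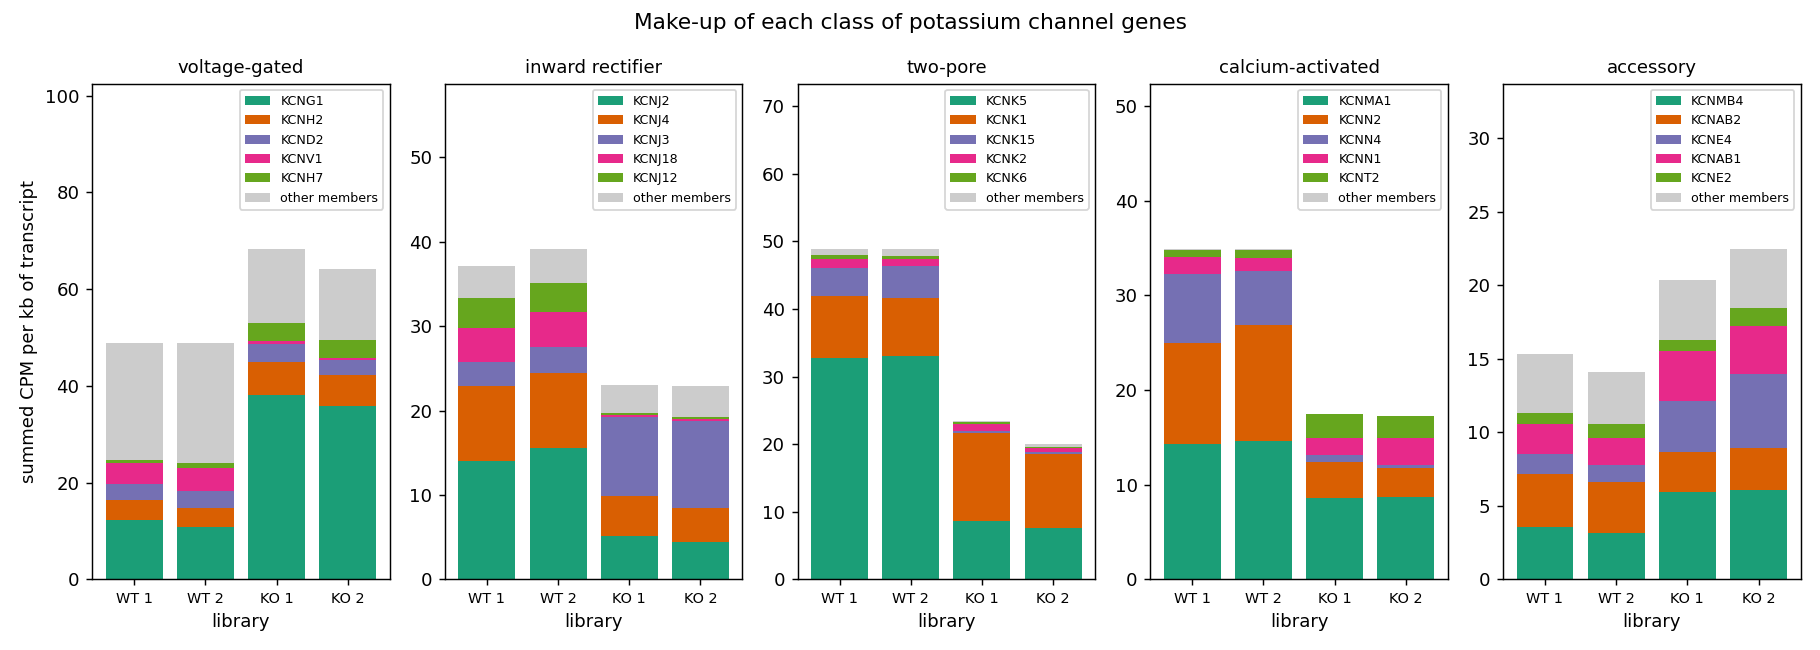
Stacked bars of CPM per kb of transcript in each library, 1 panel per class, with 5 abundant members in colour and all others in grey; vertical scales differ between panels. The KCNK5 part of the two-pore bar and the KCNJ2 part of the inward rectifier bar are smaller in both KO libraries, and the KCNG1 part of the voltage-gated bar is larger.

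Levels of assembly partners were set beside the subunits that need them. Silent subunits KCNG1, KCNG2 and KCNV1 assemble with Kv2 pores, among them KCNB2. KCNB2 was at 1.20 and 1.13 CPM in WT and 0.819 and 1.21 CPM in the KO libraries and did not pass. KCNG2 itself fell from 0.951 and 1.19 CPM to 0.230 and 0.229 CPM (log2 fold change -2.26 with SE 0.48, adjusted p = 0.00157), and the silent subunit genes KCNS1, KCNS3 and KCNF1 did not pass, with log2 fold changes of -0.82, 0.17 and 0.13. KCNG1 was thus at 84.2 and 79.5 CPM in the KO libraries where KCNB2 was at 0.819 and 1.21 CPM, and protein was not measured.

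GIRK1, the product of KCNJ3, assembles with GIRK2, GIRK3 or GIRK4, encoded by KCNJ6, KCNJ9 and KCNJ5. KCNJ5 had 3 and 2 counts in WT and 1 and 0 in the KO libraries, and KCNJ9 had 4.5 and 3 in WT and 4 and 3 in the KO libraries. KCNJ6 had 1 count in 1 WT library and 0 in the other 3. None of these could be tested, while KCNJ3 stood at 47.1 and 51.9 CPM in the KO libraries. G protein beta and gamma subunits open these channels. Of 12 such genes listed here 2 rose, 5 fell and 5 did not pass (median log2 fold change -0.30). Over all genes tested 21.9% were higher and 22.3% lower. GNG11 rose from 5.56 and 3.71 CPM to 39.7 and 33.3 CPM (log2 fold change 2.96 with SE 0.16, adjusted p = 6.47e-08) and GNG4 fell from 18.01 and 17.7 CPM to 8.22 and 6.69 CPM (log2 fold change -1.27 with SE 0.13, adjusted p = 2.5e-06).

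Of 10 listed partner genes outside the symbol rule, 4 could be tested. LRRC55 and DPP10 rose, and KCNRG and AKAP9 did not pass (median log2 fold change of the 4, 0.81). LRRC55, a gamma subunit of the BK channel, rose from 1.82 and 1.62 CPM to 15.2 and 16.6 CPM (log2 fold change 3.23 with SE 0.17, adjusted p = 2.09e-09), beside the rise of KCNMB4 and the fall of the pore gene KCNMA1. The other BK subunit genes stayed low: KCNMB1 had 3.5 and 2 counts in WT and 0 and 0 in the KO libraries, KCNMB2 and KCNMB3 did not pass (log2 fold changes 0.36 and -0.09), and LRRC26 and LRRC52 had totals of 2.5 and 1 counts. DPP10, a partner of Kv4 channels, rose from 6.37 and 7.34 CPM to 17.6 and 14.4 CPM (log2 fold change 1.21 with SE 0.15, adjusted p = 9.91e-06), while the Kv4 gene KCND2 did not pass. ABCC8 and ABCC9, the sulfonylurea receptors that KCNJ11 and KCNJ8 need, were near 0. ABCC8 had 2.5 and 2.5 counts in the WT libraries and 0 and 0 in the KO libraries, and ABCC9 had 1 count in each of the 4.

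**Figure D4:**
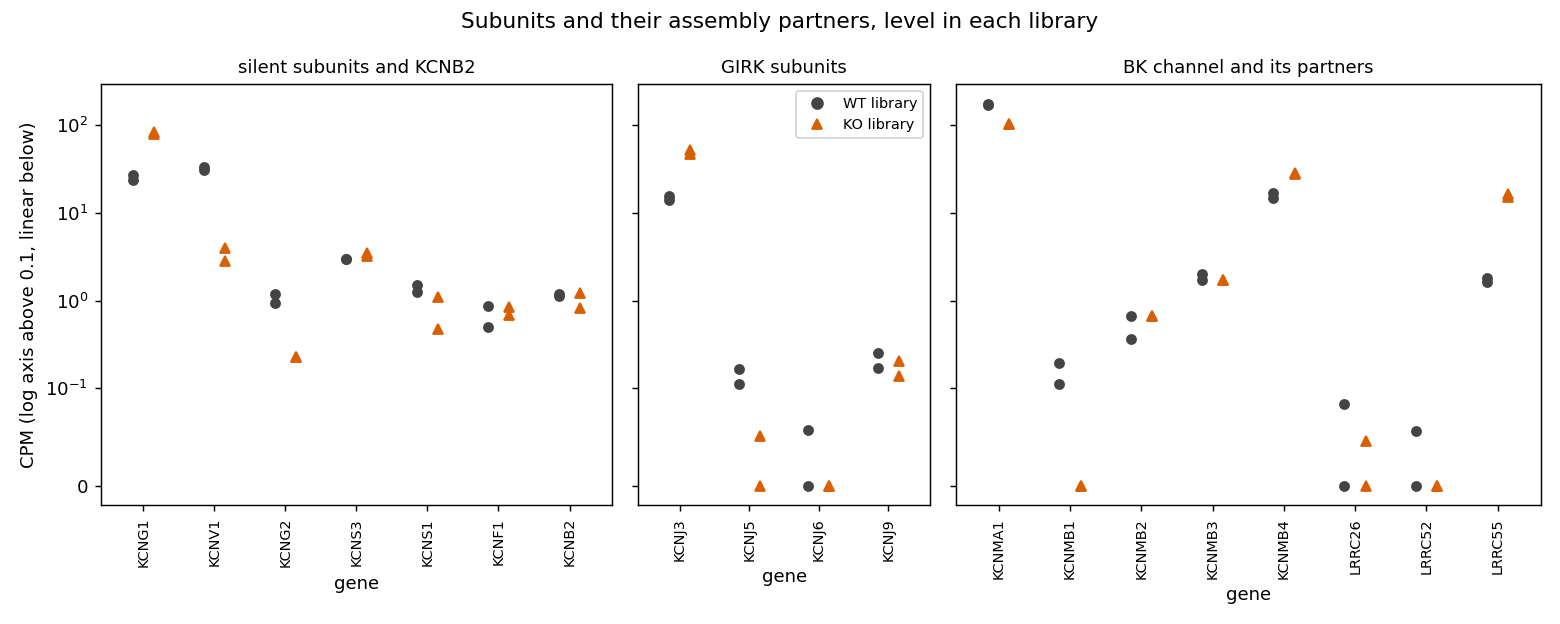
CPM in each WT library (circles) and KO library (triangles) for silent voltage-gated subunits with KCNB2, GIRK subunits, and the BK channel with its beta and gamma subunits; the axis is logarithmic above 0.1 CPM and linear below. KCNG1, KCNJ3, KCNMB4 and LRRC55 are higher in both KO libraries, and KCNJ5, KCNJ6 and KCNJ9 lie below 0.3 CPM in every library.

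Neighbouring genes were listed for the 27 members with the larger differences, taking tested genes whose start lies within 500 kb. For 6 members, KCNQ5, KCNH8, KCNJ15, KCNJ3, KCNN2 and KCNT2, there was no such gene. For 12 members at least 1 neighbour passed in the same direction and had a log2 fold change that reached 1 in size. They included RIMS4, GDAP1L1 and ADA beside KCNK15, C17orf51 beside KCNJ12, MUC1 and CHRNB2 beside KCNN3, and RHOJ beside KCNH5. KCNK5, KCNG1 and KCNV1 had 2, 9 and 2 tested neighbours and none that large in their direction. Up to 32 neighbours were tested per member, and over all genes 6.77% were lower and 4.49% higher by that size. Neighbours also passed in the opposite direction: 4 each beside KCNN4, KCNK3 and KCNJ4, against 5, 6 and 6 in their direction. KCNC1 had 2 opposite and 0 in its direction. The count was not made for genes outside the family, and nothing is read from it.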

How the data were processed

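The authors deposited 1 table of estimated counts per gene, in steps of 0.5, with 37.0% of values not whole. TopHat, HOMER, DESeq2 and hg38 are named, without versions or roles, per the submitters' processing notes. For the annotation and strandedness of counting, nothing is given in the sources used here. Only 2 of the 94 members start within 2000 bp of where GRCh38 places them, while 42 rows carry hg19 contig names, and the table's coordinates are therefore printed as hg19.

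Groups were taken from the genotype label, and columns were matched to samples by name. Values were rounded to whole numbers, filtered with filterByExpr (15643 genes left), scaled with TMM factors and tested on genotype alone with edgeR 4.0.16 (glmQLFit with robust estimation, glmQLFTest) in R 4.3.3, with Benjamini-Hochberg adjustment over all genes tested and a threshold of 0.05. The test had 2 residual degrees of freedom. On counts simulated at the real means and library sizes, with a single spread for all genes, it recovered 199 of 200 genes changed 4-fold, each with a mean over 20 counts, and made 13 false calls among 15347 genes tested. CPM uses TMM-adjusted library sizes and the unrounded values, and SD is over 2 libraries. The standard error is the log2 fold change over the square root of F. At this depth 3 counts correspond to 0.137 to 0.170 CPM. Counting intervals are exact (Clopper-Pearson), and they and the floors cover counting error only. Transcript lengths are those of the longest coding transcript in GENCODE 29.

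The members and gene lists were chosen with earlier results of these data known. Values per library were given for members whose log2 fold change reached 1 in either direction while the higher genotype averaged 1 CPM or more and the genotypes' ranges did not overlap, and for the 2 most abundant per length in each class. Members that passed with smaller changes are named, a few genes are not reported here, and genes outside this rule were chosen after their values were seen. Alternatives were DESeq2 1.42.0, limma-voom (limma 3.58.1), other scaling factors, other filters, unrounded values, each library left out, a replicate block, and, added after seeing the data, KCNJ12 and KCNJ18 summed.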

Additional observations from a re-analysis of the deposited data

How the results depend on the processing

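The number of members that rose was 12 in the edgeR fit and 10 to 13 over 13 alternatives, and the number that fell was 28 and 20 to 28, with the lowest values of both from DESeq2. Leaving out 1 library gave 11 to 12 members higher and 24 to 27 lower. Of the 40 members that passed, 30 kept their call in every alternative that gave a value, and 10 lost it in 1 or more: KCNH8, KCNA5, KCNC4, KCNQ1, KCNA6, KCNH3, KCNJ13, KCNN3, KCNN1 and KCNAB2. All 10 were lost with DESeq2. None of the 40 changed direction in these alternatives. With the replicate number as a block, 11 members rose and 27 fell, and the calls of KCNQ1 and KCNN1 were lost. Deviations of same-numbered libraries from their group means had a correlation of -0.04 over 11897 genes, so the numbers are not shown to pair the libraries, and nothing in the labels says that they do. The median log2 fold change of all genes was at most 0.0212 under any of the scaling choices, the highest being that without scaling factors. With 2 libraries a group, differences in members near 1 CPM are limited by depth, and the 33 untested members are not shown to be alike between genotypes.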

Other observations

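Genes that move potassium without a channel were measured beside the family. Of 11 pump genes tested 6 fell and 2 rose (median log2 fold change -0.21), beside 22.3% lower and 21.9% higher over all genes tested. FXYD3, a pump regulator of epithelia, fell from 3.27 and 3.23 CPM in WT to 0.0768 and 0.137 CPM in the KO libraries (log2 fold change -4.67 with SE 0.40, adjusted p = 3.36e-07). ATP1B2, a beta subunit, rose from 2.26 and 2.58 CPM to 8.25 and 8.20 CPM (log2 fold change 1.76 with SE 0.18, adjusted p = 2.37e-06). ATP1A4 was at 1.01 and 1.62 CPM against 0.768 and 0.321 CPM (log2 fold change -1.27 with SE 0.44, adjusted p = 0.0312), a call lost in 4 of 12 alternatives.

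Among 12 cation-chloride cotransporter and kinase genes tested, 5 rose and 4 fell (median log2 fold change 0.04). The shares over all genes tested were 21.9% higher and 22.3% lower. WNK4, a kinase that controls salt transport in the distal nephron, fell from 4.28 and 4.56 CPM to 1.41 and 1.54 CPM (log2 fold change -1.55 with SE 0.22, adjusted p = 6.17e-05), and WNK2 rose from 12.5 and 11.3 CPM to 25.9 and 24.5 CPM (log2 fold change 1.08 with SE 0.11, adjusted p = 1.24e-06). SLC12A2, the NKCC1 cotransporter that loads chloride and potassium into cells, was at 62.3 and 88.5 CPM against 39.6 and 34.4 CPM (log2 fold change -1.03 with SE 0.23, adjusted p = 0.0423), a call lost without KO replicate 1, without KO replicate 2 and without the filter on low counts. HCN4, a channel of the mixed-cation pacemaker current, rose from 30.1 and 28.9 CPM to 42.9 and 53.6 CPM (log2 fold change 0.71 with SE 0.10, adjusted p = 0.000157), while HCN3 did not pass. HCN4 was named after its values were seen.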
